A study of Mus musculus with 4 samples.

Results

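Among the genes with the largest rises after knockdown of Nr4a3 in mouse cardiac fibroblasts were 7 protein-coding genes, most of them known from other tissues: Ttbk1, Stmn4, Fam131b, Mtnr1a, Gp5, Sprr2k and Tmem169. They were chosen by symbol out of 13192 listed genes, with their rise already known. Their counts and fold changes are therefore given here as a description, with no test, and nothing is drawn from the fact that they rose. The libraries are labelled as a single cell type, so restriction to a tissue is background knowledge and was not measured.

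RNA was sequenced from primary wild-type cardiac fibroblasts taken from mouse heart, with neonatal as the labelled batch of every library. A short hairpin RNA, which a cell turns into a small interfering RNA that lowers its matching transcript, was directed at Nr4a3 (shNr4a3) or at no target (shNT). Each group had 2 libraries at day 7 of treatment, and each title includes P3, a tag with no explanation. Library totals ran from 34068241 to 35111013 counts. The labels give 1 hairpin treatment against Nr4a3 and do not say that the replicates were separate cultures, so every error and p-value measures only how far these libraries differ, a spread that could be technical. Nr4a3 itself had 60 and 29 counts under shNT against 4 and 8 under shNr4a3, a fall by 2.98 (SE 0.67) on the log2 scale (adjusted p = 3.22e-04, edgeR). All 10 fibroblast markers looked for were tested, with 4 called higher (Col3a1, Pdgfra, Dcn and Postn), 5 lower (Col1a1, Col1a2, Tcf21, Vim and Thy1) and Ddr2 in neither direction. Summed over the 10, normalised CPM, the share of a library's total after composition scaling, was 14452 and 14947 in the shNT libraries against 10369.7 and 10418 in the shNr4a3 libraries. The part of this change in the results below was not tested.

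Genes of this kind are held near silence in most cells by promoters that lack their activators, by repressors such as REST, which binds neuronal genes in non-neuronal cells, and by DNA methylation or Polycomb marks. Ttbk1 and Stmn4 are known from neurons, Mtnr1a from the pars tuberalis, the suprachiasmatic nucleus and the retina, Gp5 from platelets and their parent megakaryocytes, and Sprr2k belongs to a family of the cornified layer of squamous epithelia. NR4A receptors are nuclear receptors that act without a known natural ligand and bind, as monomers, a DNA element called the NBRE.

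All 7 genes were low in shNT, where all but Stmn4 had counts in both libraries, and higher in shNr4a3. FPKM, the authors' count scaled by gene length and by library total, was at most 0.666 in any shNT library for any of the 7, and in shNr4a3 it ran from 0.676 to 13.6. Together they took 128 and 174 counts in the shNT libraries against 3000 and 3054 in the shNr4a3 libraries, or 3.76 and 4.96 against 87.6 and 87.7 CPM before composition scaling. In each of the 7 both shNr4a3 libraries lay above both shNT libraries, and each was called higher. Over all 13160 tested genes, the groups were separated for 77.2% in either direction and for 38.9% in that one, and 27.6% were called higher at an adjusted p under 0.05 (edgeR). Of all calls 49.7% were higher, and 62.4% with library totals only. Since the choice of the members fixed their direction, their count is not read against these shares. In bulk RNA, more cells with a transcript and more transcript per cell cannot be told apart.

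**Figure D1:**
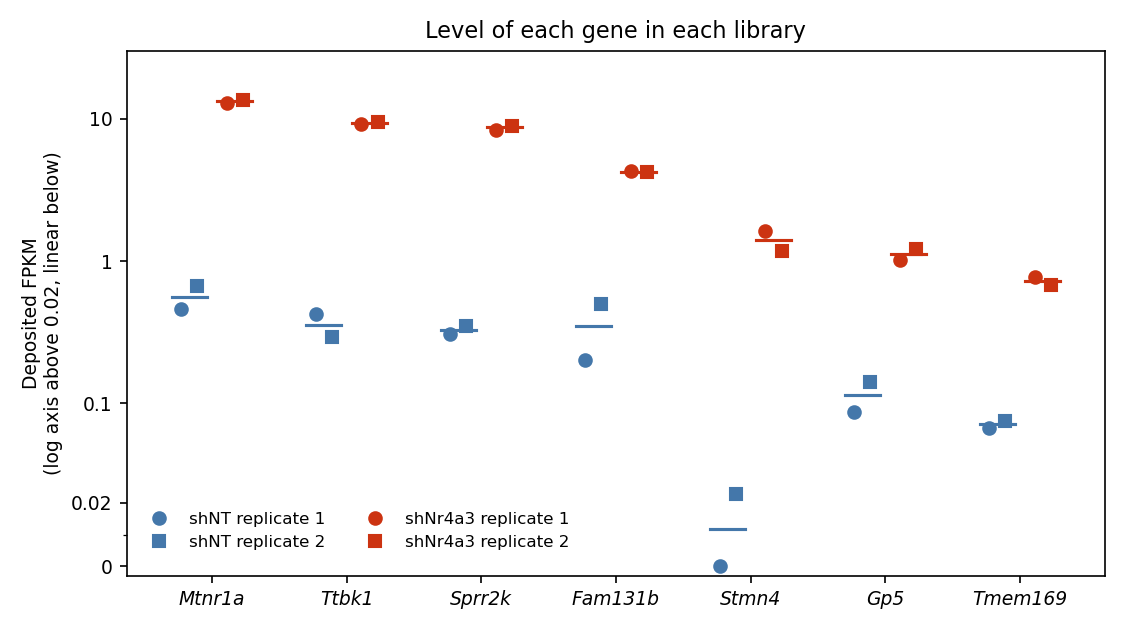
Deposited FPKM of each of the 7 genes (horizontal axis) in each library; circles are replicate 1, squares replicate 2, short lines the mean of 2 libraries, and the vertical axis is logarithmic above 0.02 and linear below. The shNr4a3 points lie above the shNT points for every gene, and Stmn4 is at 0 in 1 shNT library.

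Ttbk1 encodes tau tubulin kinase 1, a kinase of the casein kinase family that phosphorylates tau. It had 52 and 37 counts under shNT against 1130 and 1186 under shNr4a3, the most of the 7 genes in shNr4a3. The shNr4a3 libraries differed by a factor of 1.03 and the shNT libraries by 1.46 in normalised CPM. The log2 fold change was 4.59 ± 0.17 (SE over 2 libraries a group). Each such SE, here and below, comes from a fit that draws on the spread of all tested genes. It is therefore not the spread of 1 gene's libraries alone. The ratio of summed normalised counts was 24.1, with a 95% interval of 19.5 to 30.1 that covers counting error only. Ttbk1 (ENSMUSG00000015599.9) spans 46442448 to 46487675 on the minus strand of GRCm38 chromosome 17.

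Stmn4 encodes a stathmin, one of the small proteins that bind tubulin dimers and limit microtubule growth; its family member here is the neuronal form also called RB3. It had 0 and 4 counts under shNT against 274 and 201 under shNr4a3, the largest fold change of the 7. The library at 0 allows up to 3 counts, or 0.0179 FPKM. The fitted log2 fold change was 6.70 ± 0.49 (SE over 2 libraries a group) and the ratio of summed normalised counts 110.0, with a counting interval of 42.7 to 405. Without shNT replicate 1 the fitted value was 5.77. Against shNT replicate 1 alone, at its floor of 3 counts, the level in shNr4a3 was at least 72.0-fold higher. Stmn4 (ENSMUSG00000022044.14) lies on the plus strand of chromosome 14, from 66344296 to 66361680.

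Fam131b is a gene with no well-described function, known in human brain tumours as a fusion partner of BRAF. It had 22 and 56 counts under shNT against 468 and 467 under shNr4a3. The shNr4a3 pair was nearly equal, whereas the shNT pair differed by a factor of 2.45 in normalised CPM. The log2 fold change was 3.47 ± 0.25 (fitted SE, 2 libraries a group), and it was 2.98 without shNT replicate 1 and 4.27 without shNT replicate 2. That SE draws on the spread of all tested genes, and the authors' deposited standard error for Fam131b was 0.58. The gene (ENSMUSG00000029861.17) runs from 42315312 to 42324643 on the minus strand of chromosome 6. Its exons share 445 bases with Clcn1, a muscle chloride channel on the opposite strand with 10 and 14 counts under shNT against 34 and 18 under shNr4a3. The strand setting of the counting is not given in the sources used here, so reads from this overlap cannot be told apart.

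Mtnr1a encodes the melatonin receptor MT1, a receptor that couples to inhibitory G proteins. It had 24 and 36 counts under shNT against 685 and 727 under shNr4a3. Its FPKM of 13.3 ± 0.40 (SD, n = 2) in shNr4a3 was the highest of the 7, against 0.562 ± 0.15 (SD, n = 2) in shNT. That moved it from the 16.4th to the 67.0th percentile of listed genes by FPKM. The log2 fold change was 4.44 ± 0.21 (SE over 2 libraries a group). Mtnr1a (ENSMUSG00000054764.9) lies on the plus strand of chromosome 8, from 45069137 to 45088506.

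Gp5 encodes glycoprotein V, the subunit of the platelet receptor for von Willebrand factor that thrombin cleaves. It had 12 and 20 counts under shNT against 139 and 171 under shNr4a3, a log2 fold change of 3.16 ± 0.37 (SE over 2 libraries a group), the smallest of the 7. Both shNr4a3 libraries were far from both shNT libraries, but the level stayed low, at 1.12 ± 0.15 FPKM (SD, n = 2). Gp5 (ENSMUSG00000047953.7) is a short gene on the minus strand of chromosome 16, from 30307685 to 30310779.

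Sprr2k encodes a small proline-rich protein of a family that transglutaminases cross-link into the cornified envelope. It had 6 and 7 counts under shNT against 164 and 178 under shNr4a3, with close pairs on both sides. The log2 fold change was 4.58 ± 0.41 (SE over 2 libraries a group), and the counting interval of the ratio of 24.4 ran from 14.1 to 46.2. The gene (ENSMUSG00000054215.2) lies on the plus strand of chromosome 3, from 92432582 to 92433925, within the cluster of epidermal differentiation genes. The SPRR2 genes are alike in sequence, yet 0% of the 588 distinct stretches of 50 bases in its annotated transcript occurred in a transcript of another gene.

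Tmem169 encodes a predicted transmembrane protein. It had 12 and 14 counts under shNT against 140 and 124 under shNr4a3, a log2 fold change of 3.22 ± 0.40 (SE over 2 libraries a group). Its level in shNr4a3, 0.726 ± 0.071 FPKM (SD, n = 2), was the lowest of the 7. Tmem169 (ENSMUSG00000026188.11) is on the plus strand of chromosome 1, from 72284369 to 72303104.

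The order of the 7 by FPKM in shNr4a3 was Mtnr1a, Ttbk1, Sprr2k, Fam131b, Stmn4, Gp5 and Tmem169. Mtnr1a, Ttbk1, Sprr2k and Fam131b had libraries that did not overlap with the next in the order, while Stmn4, at 1.63 and 1.18 FPKM, overlapped with Gp5, at 1.01 and 1.22. In shNT the order was looser, since Fam131b at 0.202 and 0.50 FPKM spanned both Ttbk1 (0.421 and 0.291) and Sprr2k (0.308 and 0.349). The gene lengths behind the deposited FPKM differ from the exon lengths of GENCODE M21. The deposited length of Stmn4 was 4909 bases against 1916 in GENCODE, and that of Ttbk1 3623 against 14097. For Gp5 the deposited 4016 bases exceeded even the 3095 bases that the gene spans in GENCODE. With GENCODE lengths, Ttbk1 had a mean of 2.38 in shNr4a3, below Stmn4 at 3.59 and Fam131b at 3.30. Mtnr1a (9.97) and Sprr2k (7.77) kept the highest levels, so the place of Ttbk1 in the order depends on the annotation.

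Read against all tested genes, the 7 stood at ranks 3 (Stmn4), 10 (Ttbk1), 11 (Sprr2k), 13 (Mtnr1a), 23 (Fam131b), 30 (Tmem169) and 31 (Gp5) by size of rise. Of the 31 genes with a log2 fold change at least as large as that of Gp5, 12 reached a mean log2 CPM of 1: the 7 and Pappa2, H4c4, H3c4, H4c18 and Hgf. Pappa2, a protease of IGF-binding proteins, had 22 and 14 counts under shNT against 524 and 490 under shNr4a3. Just beyond Gp5 in rise, among genes that reach that level, came the linker histone gene H1f4, with a log2 fold change of 3.12. The largest rises all belonged to genes that were low in shNT. Of 2132 tested genes with a mean shNT FPKM no higher than that of Mtnr1a, 299 were called higher, 356 lower and 1477 neither, with a median log2 fold change of -0.11 against 0.00 over all tested genes. Those 2132 hold all 31. No listed gene has a mean count under 10.25, and the shNT means of Stmn4 (2 counts) and Sprr2k (6.5) lie below that, so both are listed through their shNr4a3 counts and had to differ.

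**Figure D2:**
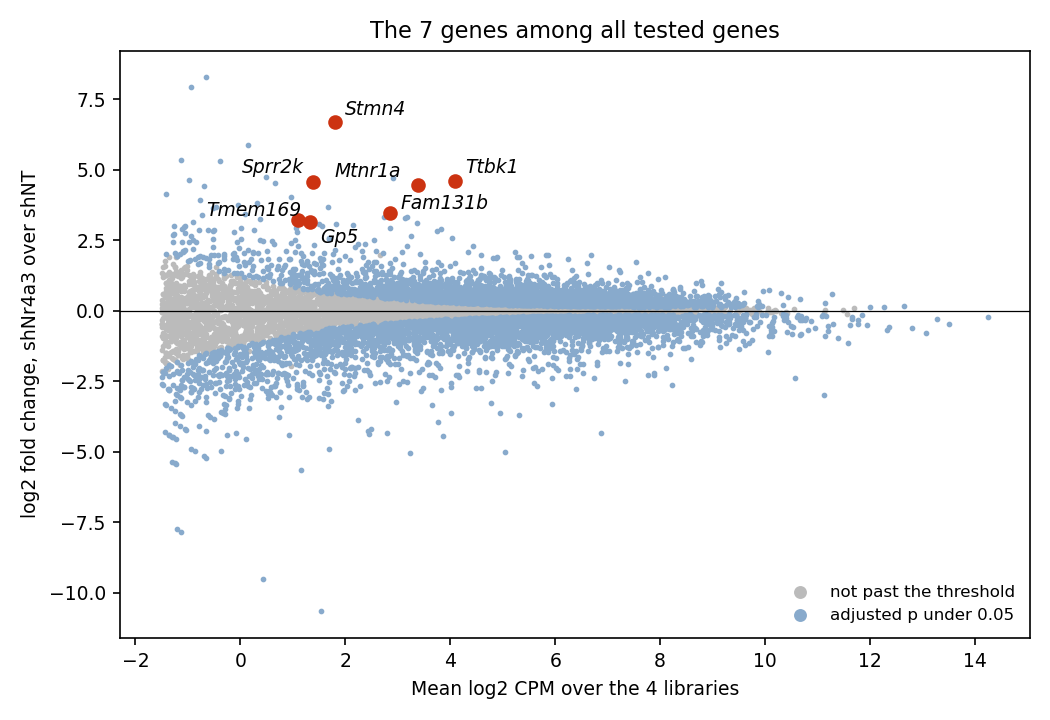
Log2 fold change of shNr4a3 over shNT (vertical axis) against mean log2 CPM over the 4 libraries (horizontal axis) for 13160 tested genes, 1 point per gene, with the 7 genes in red. Stmn4 is highest at 6.70 and Gp5 lowest at 3.16, and all 7 lie above the main cloud.

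The genes with the most similar profile over the 4 libraries were mostly each other, histone genes and Hgf. Likeness was the Euclidean distance in log2 (normalised CPM + 0.5), which follows level as well as change. The nearest gene to Tmem169 was H2bc11, a histone H2B gene with 15 and 19 counts under shNT against 129 and 124 under shNr4a3 (distance 0.28). The nearest to Fam131b was H3c4, a histone H3 gene (0.62), and the nearest to Gp5 was H2ac7, a histone H2A gene (0.45). Ttbk1 was nearest to Mtnr1a (1.25), Mtnr1a to Fam131b (0.94), Stmn4 to Sprr2k (0.86) and Sprr2k to H2bc7 (0.63). With 4 libraries in 2 groups, any genes of like level and like rise come out close.

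The 7 genes lie on 7 different chromosomes, and most of their genomic neighbours were called in neither direction. Up to 3 listed genes on each side within 500 kb between start sites gave 34 neighbours, of which 6 were called higher, 8 lower and 20 neither (edgeR), beside 27.6% higher and 27.9% lower among all tested genes. The count called higher was 3 with DESeq2, 3 without shNr4a3 replicate 2 and 9 with library totals only. The median log2 fold change of the neighbours was -0.02, against 0.00 for all tested genes, and the largest was 1.70. Clcn1, which overlaps Fam131b, stood at 1.00 (SE 0.65; adjusted p = 0.193, edgeR). The closest pair by start site was Tmem169 and Pecr, a peroxisomal reductase gene on the opposite strand whose start lies 0.055 kb away. Pecr had 288 and 289 counts under shNT against 304 and 294 under shNr4a3, or -0.06 ± 0.17 (SE) on the log2 scale (adjusted p = 0.785, edgeR). On the other side, 23.1 kb from Tmem169, Xrcc5, the Ku80 subunit of DNA repair, rose by 0.42 (SE 0.09; adjusted p = 3.43e-04, edgeR).

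Mtnr1a lies 16.9 kb beyond the end of Fat1, a giant cadherin on the same strand with 82367 and 78566 counts under shNT against 76128 and 77064 under shNr4a3. Fat1 stood at -0.18 ± 0.05 (SE) on the log2 scale (adjusted p = 0.00251, edgeR), a fall whose call was lost with library totals only (-0.07) and without either shNr4a3 library. AY512931, which starts 3.72 kb from Mtnr1a on the opposite strand, had 4 and 10 counts under shNT against 15 and 18 under shNr4a3 and did not pass (adjusted p = 0.240, edgeR). Near Ttbk1, Dnph1 starts 9.04 kb away and stood at -0.66 on the log2 scale (adjusted p = 0.0666, edgeR), and it passed without shNT replicate 1 (-0.83) or without shNr4a3 replicate 1 (-0.94). Abcc10, a drug transporter family gene, rose by 0.36 (SE 0.15; adjusted p = 0.0450, edgeR). It did not pass with DESeq2, nor without shNT replicate 2 (0.20) or shNr4a3 replicate 2 (0.21). Dlk2 fell by 3.97 (SE 1.00) on the log2 scale, from 22 and 25 counts to 3 and 0, and Cul9 by 0.67 (SE 0.10). The fitted value of Dlk2 was -3.01 without shNr4a3 replicate 2, and without shNr4a3 replicate 1 it depends on the prior count, since the library left is at 0. Srf, a transcription factor of actin genes, fell by 0.48 (SE 0.08). Near Gp5, Atp13a3, with a gap of 1.64 kb between the genes, rose by 0.15 (SE 0.06; adjusted p = 0.0266, edgeR). It did not pass without either shNr4a3 library. Hes1, a Notch target and repressor that starts 246 kb from Gp5, fell by 0.84 (SE 0.07; adjusted p = 2.11e-11, edgeR), and Lrrc15 had 18 and 22 counts under shNT against 12 and 0 under shNr4a3 (adjusted p = 0.0745, edgeR). Lrrc15 was called lower with limma-voom (adjusted p = 0.00657) and without shNr4a3 replicate 1, which leaves only the library at 0. Near Stmn4, Ptk2b, a focal adhesion family kinase, stood at -0.03 (adjusted p = 0.728, edgeR), and Ephx2 fell by 1.47 (SE 0.30).

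The neighbours of Sprr2k include other cornified envelope genes. Lor, which encodes loricrin, had 39 and 41 counts under shNT against 131 and 150 under shNr4a3 and rose by 1.70 (SE 0.31; adjusted p = 2.67e-05, edgeR). Sprr1a had 120 and 167 counts under shNT against 184 and 264 under shNr4a3, a rise of 0.53 (adjusted p = 0.0416, edgeR) that did not pass with DESeq2, with limma-voom, without shNT replicate 1 or without shNr4a3 replicate 2. Sprr3 (4 and 8 counts against 26 and 12; adjusted p = 0.104, edgeR) and Ivl, involucrin (38 and 64 against 40 and 53; adjusted p = 0.664, edgeR), did not pass.

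**Figure D3:**
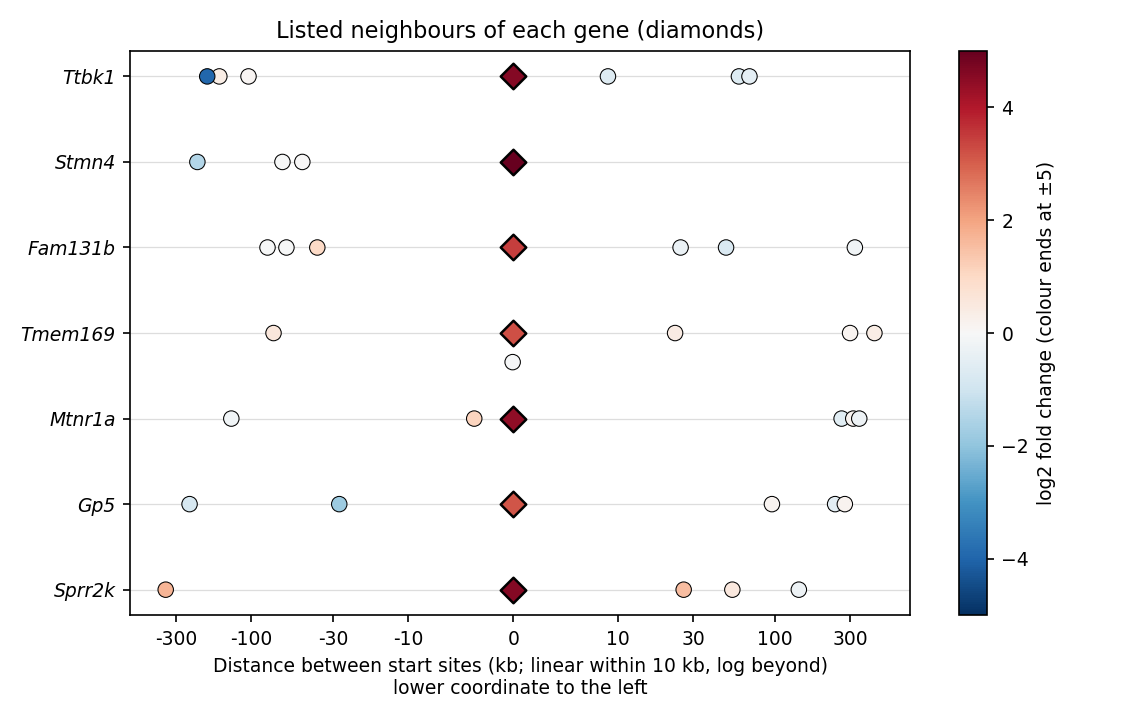
Listed neighbours (circles) of each of the 7 genes (diamonds) by distance between start sites in kb, coloured by log2 fold change of shNr4a3 over shNT; Pecr, at 0.055 kb from Tmem169, is drawn just below its row. The diamonds are dark red, whereas the circles run from -3.97 (Dlk2) to 1.70 (Lor).

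Genes related to the 7 by family or tissue moved in both directions. Over 7 lists, 86 genes were tested, of which 19 (22.1%) were called higher, 22 (25.6%) lower and 45 neither, beside 27.6% and 27.9% of all tested genes. Their median log2 fold change was -0.11 and the largest was 2.96. The listed paralogs of the neural genes did not pass the test. Stmn1, the widely expressed stathmin, had 346 and 347 counts under shNT against 304 and 325 under shNr4a3 (log2 fold change -0.25 ± 0.16, adjusted p = 0.179, edgeR). Ttbk2, a kinase needed to build cilia, had 641 and 766 against 713 and 744 (-0.06 ± 0.11, adjusted p = 0.686, edgeR). Fam131a had 299 and 310 against 355 and 344 (0.09 ± 0.16, adjusted p = 0.658, edgeR). Stmn2, Stmn3, Fam131c and the second melatonin receptor gene Mtnr1b were not among the listed genes.

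Microtubule and neuronal genes moved in both directions. Of 21 tested genes of tau, microtubule-associated proteins and tau kinases other than Ttbk1, 7 were called higher and 4 lower, with a median log2 fold change of 0.07. Tubb3, the neuronal beta tubulin, had 1301 and 1475 counts under shNT against 5833 and 5899 under shNr4a3 and rose by 1.97 (SE 0.07). Map1b rose by 0.83 (SE 0.06), while Map4 fell by 0.58 (SE 0.06) and Tubb2b by 1.13 (SE 0.12). Mapt, which encodes tau, was not among the listed genes. Of 34 tested neuronal and synaptic genes 4 were called higher and 13 lower, with a median of -0.31. Kif5c, a kinesin motor of neurons, rose by 1.89 (SE 0.10) and Dpysl3 by 0.54 (SE 0.06). Uchl1, a neuronal ubiquitin hydrolase, fell by 1.02 (SE 0.11) and Scg2, a secretory granule protein, by 1.15 (SE 0.14). Syt1, the calcium sensor of synaptic vesicles, named after its value was seen, had 4 and 2 counts under shNT against 38 and 14 under shNr4a3. Its rise of 2.96 (SE 0.87; adjusted p = 0.00446, edgeR) was no longer called once shNr4a3 replicate 1 was left out (adjusted p = 0.151). The neuronal genes Snap25, Rbfox3, Nefl and Gria2 were not among the listed genes.

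Of 8 tested genes of melatonin synthesis and its G protein signalling, 3 were called higher. These were 3 of the 5 tested alpha subunits of the Gi/o family to which MT1 couples. Gnai3 rose by 0.38 (SE 0.06), Gnai1 by 0.46 (SE 0.12) and Gnao1 by 0.25 (SE 0.09); Gnai1 did not pass without shNr4a3 replicate 1, nor Gnao1 without shNT replicate 2 or shNr4a3 replicate 2. Gnai2, with the most counts of the 5, had 24687 and 23690 against 26432 and 27013 (0.03 ± 0.05, adjusted p = 0.628, edgeR). It passed when scaled by library totals (0.15) or without shNT replicate 1 (0.094), and turned to -0.022 without shNT replicate 2. Gnaz had 67 and 63 against 42 and 38 (-0.81 ± 0.41, adjusted p = 0.0928, edgeR). The enzymes that make melatonin, Aanat and Asmt, were not among the listed genes. Of 9 tested platelet genes 1 was called higher and 3 lower, with a median of -0.40. F2r, the thrombin receptor PAR1, rose by 0.27 (SE 0.05), from 66358 and 69906 counts to 88491 and 88541. Selp, P-selectin, fell by 2.27 (SE 0.15), Itgb3, the beta 3 integrin, by 1.17 (SE 0.08) and Rab27b by 0.65 (SE 0.21; lost without shNr4a3 replicate 2). Gp1ba, the von Willebrand factor binding partner of Gp5, had 56 and 53 counts under shNT against 41 and 52 under shNr4a3 (adjusted p = 0.508, edgeR), and the other subunits, Gp1bb and Gp9, were not among the listed genes.

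Of 12 tested cornified envelope and epidermal genes besides Sprr2k, 4 were called higher and 2 lower, with a median of 0.34. Among those called, the highest were Lor (1.70) and Tchh, trichohyalin, which rose by 1.24 (SE 0.11), from 504 and 458 counts to 1199 and 1262. Crct1 rose by 0.51 (SE 0.15), a call lost without shNr4a3 replicate 1. Keratin 14 of basal epidermis, Krt14, went the other way, with 203 and 183 counts under shNT against 0 in each shNr4a3 library, and Ppl, periplakin, had 25 and 38 against 6 and 2. None of the other SPRR2 genes was among the listed genes.

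**Figure D4:**
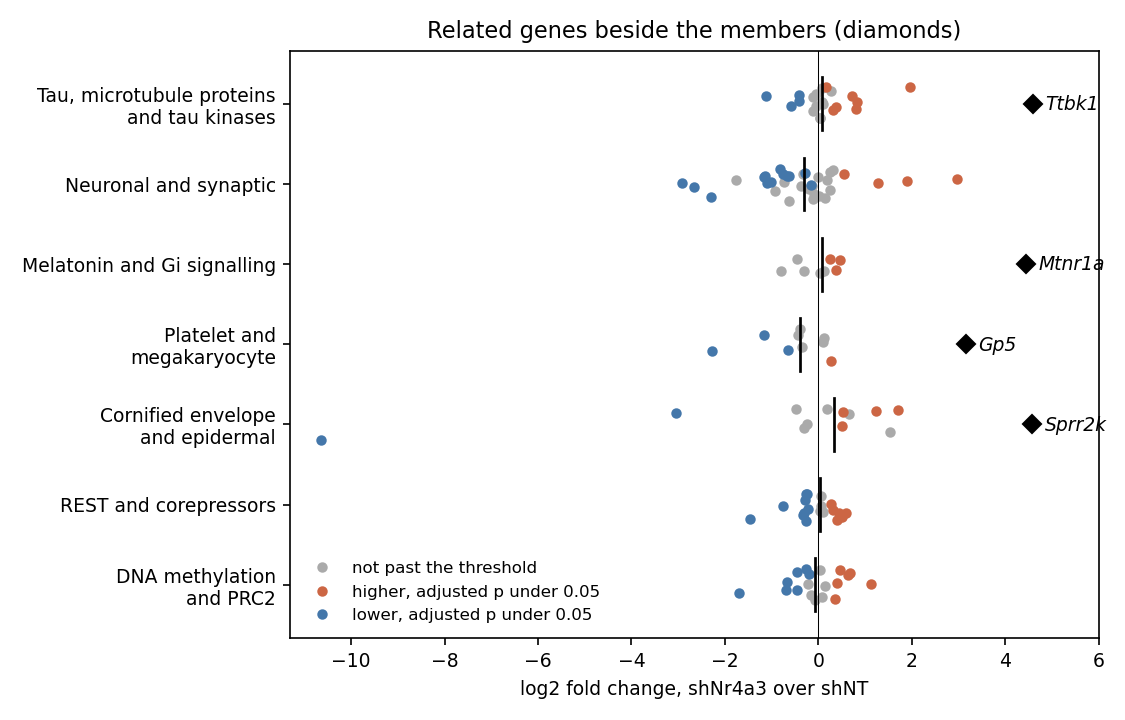
Log2 fold change of shNr4a3 over shNT for tested genes of 7 lists (1 point per gene, spread vertically at random), with a black line at each list's median and a diamond for a member of the 7 where the list has one. The point furthest left is Krt14, at 0 counts in both shNr4a3 libraries, whose fitted place depends on the prior count. Medians lie between -0.40 and 0.34. Each diamond stands to the right of every other gene of its list. The 7 were chosen with their large rise known, so nothing is drawn from that place.

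Genes of repressor complexes were expressed in both groups and moved in both directions. Whether these complexes act on the 7 genes was not tested. All 20 listed genes of REST and its corepressors were tested, with 7 called higher and 9 lower. Rest had 2799 and 3132 counts under shNT against 4302 and 4104 under shNr4a3 and rose by 0.39 (SE 0.07; adjusted p = 1.23e-05, edgeR). Its corepressors Rcor1 (0.51), Hdac2 (0.47) and Sin3b (0.45) rose too. Of 19 tested genes of DNA methylation, Polycomb repressive complex 2 and related silencing, 6 were called higher and 7 lower. Over all tested genes, 27.6% were called higher and 27.9% lower, so movement in both directions is not particular to these 2 lists. Suz12 (0.67) and Eed (0.63), core subunits of the Polycomb complex, rose, and Dnmt3a, a DNA methyltransferase, fell by 0.46 (SE 0.06). Trim28, a corepressor of zinc finger proteins, fell by 0.70 (SE 0.06).

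The promoters of the 7 differ widely in base composition. RefSeq windows of GRCm38.p6, from 250 bases before to 50 after the start, were at hand for 6 of them and for 32841 promoters in all; Stmn4 had none. GC content ran from 41.0% in Gp5 to 75% in Fam131b, with a median of 52.7% over all promoters. The ratio of observed to expected CpG ran from 0 in Gp5 and 0.077 in Sprr2k to 0.884 in Fam131b, with a median of 0.384. Ttbk1 (0.737), Tmem169 (0.699) and Mtnr1a (0.592) lay on the CpG-rich side.

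**Figure D5:**
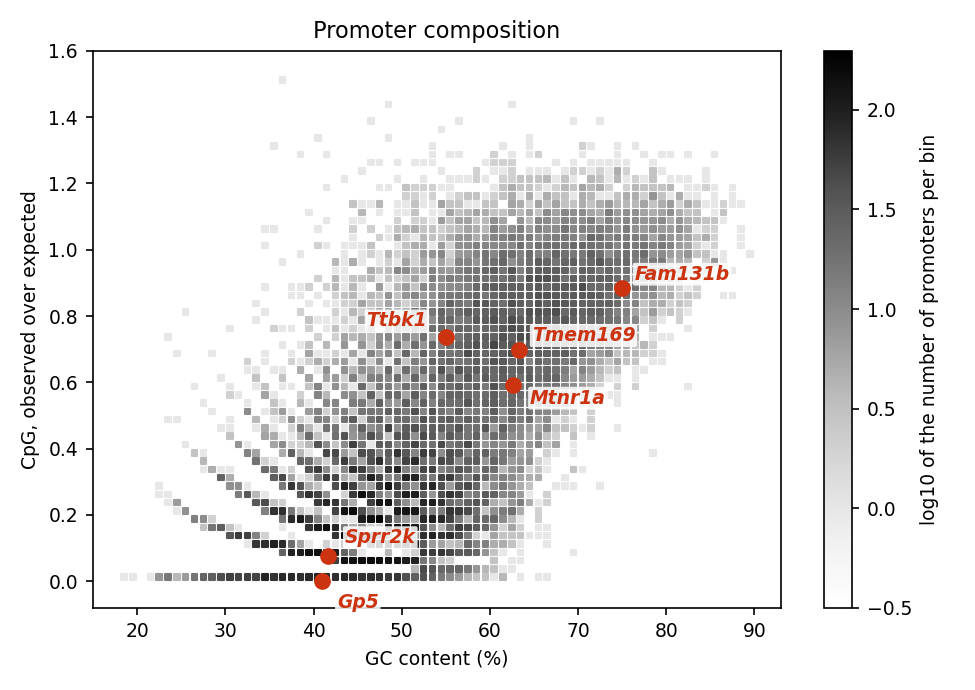
GC content in percent (horizontal axis) and ratio of observed to expected CpG (vertical axis) of 32841 promoters of 300 bases, as grey bins shaded by the log10 number of promoters, with the promoters of 6 of the 7 genes in red. Gp5 and Sprr2k lie at the CpG-poor end and Fam131b at the GC-rich end.

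Motifs were searched on both strands of these windows. The NBRE, AAAGGTCA, occurred in 0 of the 6 promoters and in 1.51% of all, and the hexamer AGGTCA that it contains in 0 of 6 and in 16.3% of all. TTCAGCACC, a portion of the REST element, was in 0 of 6 and in 0.371% of all. The cyclic AMP response element TGACGTCA (1.79% of all) and the TGACG that it contains (20.8% of all) were in 0 of 6. A TATA box (TATAAA, 13.6% of all promoters) was in Sprr2k alone, where it begins 29 bases before the start. The AP-1 motif TGANTCA (7.81% of all) was also in Sprr2k alone, at 2 places. The E-box CACGTG (7.15% of all) was in Tmem169 and Mtnr1a. The GC box GGGCGG (35.7% of all) was in Ttbk1, Fam131b and Tmem169, and CCAAT (37.4% of all) in Fam131b and Tmem169. No motif was in more than 3 of the 6, and letters in a window show no binding.

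The 4 promoters below show that range, 5′ to 3′ on the strand of the gene, with the searched motifs in capitals: GC boxes and CCAAT in the CpG-rich promoter of Fam131b; CCAAT, the E-box and GC boxes (as CCGCCC, the other strand) in that of Tmem169, which also holds the start of Pecr at its base 192; the E-box in that of Mtnr1a; and 2 AP-1 motifs and the TATA box in the CpG-poor promoter of Sprr2k. They are chr6:42324591-42324890 (minus strand), chr1:72284123-72284422 (plus), chr8:45068857-45069156 (plus) and chr3:92432332-92432631 (plus) of GRCm38.p6.
Fam131b: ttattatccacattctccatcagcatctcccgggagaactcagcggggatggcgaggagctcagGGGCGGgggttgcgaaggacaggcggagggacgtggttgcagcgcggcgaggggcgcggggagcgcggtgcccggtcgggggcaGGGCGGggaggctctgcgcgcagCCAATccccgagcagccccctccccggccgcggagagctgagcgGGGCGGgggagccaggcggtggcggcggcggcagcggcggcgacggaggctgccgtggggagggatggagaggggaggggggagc
Tmem169: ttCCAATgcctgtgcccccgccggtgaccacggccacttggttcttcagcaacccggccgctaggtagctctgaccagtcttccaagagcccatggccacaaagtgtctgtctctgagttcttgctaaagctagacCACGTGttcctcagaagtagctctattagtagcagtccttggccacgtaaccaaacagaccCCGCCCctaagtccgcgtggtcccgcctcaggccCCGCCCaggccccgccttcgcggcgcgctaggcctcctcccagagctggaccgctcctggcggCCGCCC
Mtnr1a: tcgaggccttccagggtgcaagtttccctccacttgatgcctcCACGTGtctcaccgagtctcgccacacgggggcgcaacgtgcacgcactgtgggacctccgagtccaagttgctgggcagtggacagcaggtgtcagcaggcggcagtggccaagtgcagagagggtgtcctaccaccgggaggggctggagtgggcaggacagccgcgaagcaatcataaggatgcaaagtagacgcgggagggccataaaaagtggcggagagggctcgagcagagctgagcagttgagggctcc
Sprr2k: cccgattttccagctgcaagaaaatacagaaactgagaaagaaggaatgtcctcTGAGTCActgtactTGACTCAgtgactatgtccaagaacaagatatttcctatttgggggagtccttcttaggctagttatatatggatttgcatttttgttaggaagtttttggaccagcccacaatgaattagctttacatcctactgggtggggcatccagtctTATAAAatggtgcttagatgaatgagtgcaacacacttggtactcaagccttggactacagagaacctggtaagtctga

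Markers of other cell types moved between the groups beside these genes. In summed normalised CPM, the 10 epicardial and mesothelial markers reached 688 and 705 in the shNT libraries but 255 and 256 in the shNr4a3 libraries, with 1 called higher and 9 lower. The 9 endothelial markers reached 345 and 361 against 174 and 181, with 0 called higher and 7 lower. The 6 Schwann and neural crest markers listed of 8 reached 8.20 and 9.88 against 3.49 and 4.27, with 0 called higher and 3 lower. The 5 tested macrophage markers of 10 reached 60.5 and 60.6 against 99.2 and 99.8, with Lyz2 alone called higher and 3 lower. The rise of this sum is that of Lyz2, with 1313 and 1430 counts against 3233 and 3186. Cd68, Laptm5 and Cd14 fell, Csf1r was not called, and Ptprc was listed but not tested. The defining markers Adgre1, Fcgr1, C1qa and C1qb were not listed. The 5 listed cardiomyocyte markers of 10 reached 1003 and 1059 against 481 and 506, with 0 called higher and 1 lower. That sum is almost wholly Tnnt2, a troponin T, with 34467 and 33950 counts against 17008 and 18290, while Myh6, Tnni3, Ryr2 and Myl7 had from 2 to 34 counts in any library and were not called. The part of any change in cell mixture in the rise of the 7 genes was not tested.

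In the authors' deposited table the log2 fold changes of the 7 were 4.58 (Ttbk1), 6.78 (Stmn4), 3.48 (Fam131b), 3.23 (Tmem169), 4.44 (Mtnr1a), 3.16 (Gp5) and 4.6 (Sprr2k). The standard errors deposited with them were 0.21 (Ttbk1), 0.79 (Stmn4), 0.58 (Fam131b), 0.48 (Tmem169), 0.26 (Mtnr1a), 0.45 (Gp5) and 0.53 (Sprr2k). Each is larger than the edgeR SE given above for the same gene. The authors' deposited table marks all 7 as up, among 281 genes marked up and 704 marked down.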

How the data were processed

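Messenger RNA levels were measured in 4 libraries, 2 shNT and 2 shNr4a3, as their titles name them. Per the labels' protocols, RNA taken up in TRIzol was cleared of ribosomal RNA before stranded, paired-end library preparation, while the molecule field reads polyA RNA. The submitters' processing notes name mm10, Trimmomatic 0.36, featureCounts, Subread 1.5.1 and SAMtools. How reads were aligned, and with which strand setting and annotation they were counted, is not given in the sources used here.

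Per the file headers, the deposited table gives the authors' raw count per gene in each library. The deposited FPKM was made by the authors from those counts, the column sum and a gene length, which came out whole within 0.01 bases for 100% of nonzero values. The authors' deposited log2 fold change and its standard error are quoted as they stand. The authors' deposited mean expression signal, test statistic (a score) and p-value columns come from their own comparison and support no value here.

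Counts were tested by edgeR (version 4.0.16, R 4.3.3): robust quasi-likelihood fits, TMM factors and the default expression filter, which left 13160 of 13192 genes, with a common biological coefficient of variation of 6.57%. P-values were adjusted over all tested genes by Benjamini-Hochberg, with a threshold of 0.05. A standard error is the size of the log2 fold change over the square root of F. That F rests on a gene's spread moderated toward the spread of all tested genes. Ratios of summed counts carry exact 95% conditional binomial intervals, and floors are 3 counts per library; both cover counting error only. The edgeR and motif steps were tested on simulated data. Alternatives were DESeq2 1.42.0, limma-voom (limma 3.58.1), 3 other scalings, 2 other filters, other prior counts, FPKM with a pseudocount, the replicate number as a block and each library left out.

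The members and the gene lists were chosen with earlier results of these data known. Named genes were the 7, their paralogs, Rest and Nr4a3, up to 4 called genes per list with the smallest p, neighbours by distance, the nearest profiles, cell type markers, and genes ranked among the 7 that reach a mean log2 CPM of 1. Crct1, Gnai2, Gnaz and Itga2b were named from the lists outside that rule, as were genes given as not listed. Syt1 and the genes of the last paragraph, also outside it, are marked where they appear. GENCODE M21 on GRCm38, which holds 96.3% of the listed symbols, gave positions and overlaps, which may differ in the authors' annotation. RefSeq on GRCm38.p6 gave promoters.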

Additional observations from a re-analysis of the deposited data

How the results depend on the processing

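All 7 genes were higher in shNr4a3 in each of 14 alternatives on counts and with FPKM at either pseudocount. Log2 fold changes over those 14 ran from 4.34 to 4.88 for Ttbk1, 2.98 to 4.27 for Fam131b, 3.06 to 3.34 for Tmem169, 4.21 to 4.73 for Mtnr1a, 2.87 to 3.54 for Gp5 and 4.25 to 4.69 for Sprr2k. Stmn4 ran from 5.77 without shNT replicate 1 upward; without shNT replicate 2 its only shNT library is at 0 and the fitted value depends on the prior count. On the log2(FPKM + 1) scale the rises shrank to between 0.69 (Tmem169) and 3.20 (Mtnr1a), since this scale understates the change of low genes.

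Calls among the 34 neighbours were few: 6 higher, but 3 with DESeq2, 9 with library totals only and 3 to 7 without 1 library. The counts over all genes, over related genes and of neighbours called lower stayed within 1.5 times in the alternatives run. Library totals only shifted the median over all tested genes by 0.11 (log2) and the share of calls that were higher from 49.7% to 62.4%. With the replicate number as a block, 3552 genes were called higher and 3599 lower, against 3635 and 3674 without it, and the block gave 32 and 36 related genes and 6 and 9 neighbours, with Lrrc15 newly called lower (adjusted p = 0.0444, edgeR). The replicate numbers share no stated origin, and the replicate differences of the 2 groups had a correlation of -0.036 across 12452 genes.

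Log2 fold changes that changed sign all belonged to genes not called in the main test or in the setting that changed the sign. With library totals only, Ttbk2 (0.054), Pecr (0.054) and Ptk2b (0.081) were above 0. With each library left out in turn, Ttbk2 ran from -0.15 to 0.048, Ptk2b from -0.12 to 0.071, Ivl from -0.54 to 0.15, Itga2b from -0.085 to 0.27, Zfp318 from -0.032 to 0.21 and Gnai2 from -0.022 to 0.094. The upper ends of Zfp318 (adjusted p = 0.0459, edgeR) and Gnai2 (adjusted p = 0.00263, edgeR), both without shNT replicate 1, passed. The cause was not tested. With 2 libraries per group and shNT counts from 0 to 56 in the 7 genes, the shNT level limits each fold change.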

Other observations

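Beside the 7, another 19 genes rose by at least as much as Gp5 with a mean log2 CPM under 1, and several of them are also known from other tissues; those named here were picked after their values were seen. Plppr5, a neuronal phospholipid phosphatase-related protein, had 2 and 0 counts under shNT against 68 and 75 under shNr4a3. Kctd16, an auxiliary subunit of GABA-B receptors, had 4 and 2 against 78 and 103. Ugt2b35, a glucuronosyltransferase, had 0 in both shNT libraries and 36 and 44 in shNr4a3, and the orphan receptor gene Gpr165 had 0 in both and 22 and 42. Hpgds, a prostaglandin D synthase, had 0 and 8 counts against 116 and 87, and Hdc, histidine decarboxylase, had 4 and 2 against 43 and 40. Cd83, a surface protein of dendritic cells, had 2 and 0 against 46 and 50. These genes are low in every library. Each of them has a shNT mean under 10.25, so all are listed through their shNr4a3 counts and had to differ. The rest of the 19 are not described here.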
